A study of Mus musculus with 44 samples.

Results

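The nuclear RNA of 10 genes of the p53 pathway and of senescence-associated growth arrest was described in mouse liver across 2 diets that induce non-alcoholic steatohepatitis (NASH). The genes are Trp53, Mdm2, Cdkn1a, Cdkn2b, Cdkn2c, Btg2, Ccng1, Trp53inp1, Bax and Gdf15. They were taken by symbol from a table of read counts for 20105 transcript identifiers, and each of the 10 symbols had 1 identifier. The study used male HEP-INTACT mice, whose hepatocyte nuclei bear a tag by which they can be pulled from a suspension of all liver nuclei. RNA was sequenced from the tagged hepatocyte nuclei and from whole liver nuclei of each of 22 mice, which gave 44 libraries. Treated mice received the FPC diet for 20 weeks or CDAHFD, a high-fat diet that lacks choline and has defined amino acids, for 7 weeks, and each diet had its own control mice on a low-fat diet for the same time. Each diet had 4 control mice, 4 mice with mild disease and 3 with advanced disease, numbered within a group in the order in which their values are given. Liver histology placed a treated mouse in the mild or the advanced group, where fibrosis marked the advanced group, so these groups were not randomised. All mice, controls included, carry the tag. The labels used here name neither the promoter that drives it nor the strain or age of the mice, and each library is a bulk sample in which fewer cells of a type and less RNA per cell cannot be told apart.

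p53, the product of Trp53, is a transcription factor that is kept low by the ubiquitin ligase MDM2 and accumulates after DNA damage and other stress. It then raises the transcription of its targets, among them Mdm2 itself as a feedback inhibitor, the cyclin-dependent kinase (CDK) inhibitor p21 encoded by Cdkn1a, and the pore-forming cell death protein BAX. In the liver, p21 is known to hold hepatocytes out of division after injury, and p21 together with inhibitors of the INK4 family, which includes the products of Cdkn2b and Cdkn2c, is used as a sign of senescence.

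The promoter windows below are shown because 5 of the genes hold the 10-base p53 half-site in the 250 bases before an annotated start and their RNA moved in unlike ways. The windows come from RefSeq annotation of GRCm38.p6, the mm10 build, and 9 of the 10 genes had at least 1 window, 12 in all. The p53 half-site consensus was searched without mismatch (it reads the same on both strands), and 5 of the 12 windows held it, against 7.13% of the 32851 windows of the table. A pair of half-sites at most 13 bases apart, with at most 2 mismatches over the pair and its cores whole, was found in 2 of the 12 windows (Cdkn1a and Bax) and in 1.75% of all windows. Capitals mark exact half-sites and the members of such pairs, and each sequence reads 5′ to 3′ toward the gene. The window of Cdkn1a shown is chr17:29090729-29090978 on the plus strand, with exact half-sites 73 and 51 bases before the start. A second Cdkn1a window, chr17:29093519-29093768, lies before another annotated start 2783 bases into the counted span. It held no half-site and no pair, and is not shown. The windows of Mdm2 (chr10:117710759-117711008, minus strand), Ccng1 (chr11:40755287-40755536, minus strand), Bax (chr7:45466899-45467148, minus strand) and Trp53 (chr11:69580109-69580358, plus strand) hold 1 exact half-site each, at 186, 185, 201 and 75 bases before the start. The window of Cdkn2c (chr4:109666757-109667006, minus strand) is shown as one without a match.
Cdkn1a: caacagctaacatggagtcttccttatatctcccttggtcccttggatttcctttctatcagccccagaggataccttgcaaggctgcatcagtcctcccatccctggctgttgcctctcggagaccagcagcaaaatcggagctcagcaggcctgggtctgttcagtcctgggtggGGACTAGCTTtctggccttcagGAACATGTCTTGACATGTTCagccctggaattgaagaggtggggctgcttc
Mdm2: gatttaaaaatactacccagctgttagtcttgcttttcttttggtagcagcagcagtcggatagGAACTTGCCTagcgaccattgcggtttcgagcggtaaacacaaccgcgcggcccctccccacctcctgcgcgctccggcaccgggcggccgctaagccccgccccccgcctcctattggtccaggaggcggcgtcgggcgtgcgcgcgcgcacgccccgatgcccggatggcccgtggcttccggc
Ccng1: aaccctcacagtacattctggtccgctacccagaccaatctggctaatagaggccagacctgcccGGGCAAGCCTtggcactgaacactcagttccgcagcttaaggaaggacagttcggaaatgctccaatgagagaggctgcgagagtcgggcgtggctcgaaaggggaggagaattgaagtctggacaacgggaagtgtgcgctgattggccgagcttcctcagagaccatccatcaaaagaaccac
Bax: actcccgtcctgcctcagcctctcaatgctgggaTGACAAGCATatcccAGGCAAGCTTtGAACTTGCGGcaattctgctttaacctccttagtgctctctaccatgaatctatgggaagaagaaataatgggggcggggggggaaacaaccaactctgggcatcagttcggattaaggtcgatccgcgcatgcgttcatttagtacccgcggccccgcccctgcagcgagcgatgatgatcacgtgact
Trp53: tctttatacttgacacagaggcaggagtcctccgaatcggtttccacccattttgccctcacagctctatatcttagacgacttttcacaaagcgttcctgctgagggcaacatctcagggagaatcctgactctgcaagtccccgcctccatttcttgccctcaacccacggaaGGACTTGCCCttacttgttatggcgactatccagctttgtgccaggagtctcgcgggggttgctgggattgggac
Cdkn2c: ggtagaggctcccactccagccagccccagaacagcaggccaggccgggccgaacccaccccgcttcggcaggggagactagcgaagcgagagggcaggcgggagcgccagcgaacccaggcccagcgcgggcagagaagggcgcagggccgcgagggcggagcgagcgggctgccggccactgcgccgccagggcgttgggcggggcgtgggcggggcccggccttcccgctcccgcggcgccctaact
A match is a description, not a bound site or a cause. The lack of one says only that these letters are not in this window.

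Library totals ran from 12.1 to 33.1 M counts. Reads were counted over whole gene bodies, introns included, for all 10 genes, and levels are given as CPM, counts scaled to a common library size, after trimmed-mean (TMM) scaling over all 44 libraries. Fold changes were fitted with TMM scaling inside each comparison, so a small fold change can differ in sign from the difference of CPM means. Adjusted p-values are from the quasi-likelihood F-test of edgeR after Benjamini-Hochberg adjustment across the genes of a fit, and a gene counts as changed below 0.05. Scaling by library totals moved the median log2 fold change of all genes from 0.00 to 0.41 (FPC) and 0.49 (CDAHFD) in advanced against control hepatocyte nuclei, and the share of called genes that were higher from 56.5% to 84.8% and from 51.0% to 80.1%. Both libraries of CDAHFD control mice 1 and 2 deviated from their group in a crossed manner (each resembled the other mouse's second library). The changes of the 10 genes with CDAHFD are therefore also given without them. Those of other genes that were refitted are so given where a call or a fold of over 1.5 times depends on them. Both mice are controls of the same diet, so exchanged labels would alter the pairing of fractions but no group within a fraction. Fits without them keep 2 of the 4 controls, and whether a call changed there through fewer mice was not tested. Markers of other cells also changed in hepatocyte nuclei of advanced mice. The summed CPM of 10 recruited macrophage markers was 7.02 to 10.1 in FPC control and 55.6 to 65.2 in FPC advanced libraries, and 8.37 to 36.9 in control against 78.9 to 84.8 in advanced CDAHFD libraries. That of 13 cholangiocyte markers was 1280 to 1750 against 5790 to 6930 (FPC) and 1020 to 1710 against 2680 to 2900 (CDAHFD), and that of 18 hepatocyte markers 19600 to 31300 against 8380 to 12400 (FPC) and 19100 to 29900 against 9260 to 12500 (CDAHFD). The 14 lymphocyte markers summed to 6.53 to 9.16 against 19.8 to 36.7 (FPC) and 4.2 to 8.45 against 15.6 to 22.6 (CDAHFD). All 10 macrophage and all 13 cholangiocyte markers rose with FPC (9 and 11 with CDAHFD), 15 of 18 hepatocyte markers fell with FPC and 9 of 17 tested with CDAHFD. The part of these cells in the results below was not tested.

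In hepatocyte nuclei of advanced FPC mice, 3 of the 9 genes that could be tested were higher than in controls and none was lower: Cdkn1a, Cdkn2c and Btg2. Over all 13498 genes tested, 46.9% changed and 26.5% were higher, so 3 of 9 is near the background. Mild FPC disease also gave 3 (Cdkn1a, Cdkn2c and Gdf15), where 33.1% of all genes changed and 21.8% were higher. With CDAHFD, 7 of the 9 were higher in advanced mice (all but Trp53inp1 and Gdf15) against 59.5% of 13277 genes changed and 30.3% higher, and the same 7 were higher in mild mice against 56.3% changed and 29.6% higher. The median log2 fold change of the 9 genes was 0.51 (FPC advanced), 0.74 (FPC mild), 1.05 (CDAHFD advanced) and 0.99 (CDAHFD mild), where the medians of all genes lay between -0.00 and 0.04. Cdkn2b was too low to test in any comparison. Scaled by library totals, 8 of the 9 were called in advanced FPC mice, where 52.7% of all genes were called and 44.7% were higher, and 6 in mild FPC mice, against 36.3% and 31.9%. In whole liver nuclei, 4 were higher in advanced FPC mice (Cdkn1a, Cdkn2c, Btg2 and Bax) and 2 in mild FPC mice (Cdkn1a and Cdkn2c), where 59.3% and 43.2% of all genes changed and 31.3% and 25% were higher. In advanced CDAHFD whole liver 6 were higher (Cdkn1a, Cdkn2c, Btg2, Bax, Mdm2 and Ccng1) and in mild 5 (the same without Ccng1), against 55.7% and 52.2% of all genes changed and 29.7% and 27.7% higher. Without CDAHFD control mice 1 and 2 the CDAHFD hepatocyte counts were 7 and 7, with Trp53 lost and a lower Trp53inp1 gained in both, and the whole liver counts 7 and 6, with Trp53inp1 gained. Over all genes these refits called 6990 and 6451 (hepatocyte, advanced and mild) and 6853 and 6120 (whole liver). The main fits had called 7903 and 7479, and 7847 and 7360. Mild and advanced groups of a diet share their controls.

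**Figure D1:**
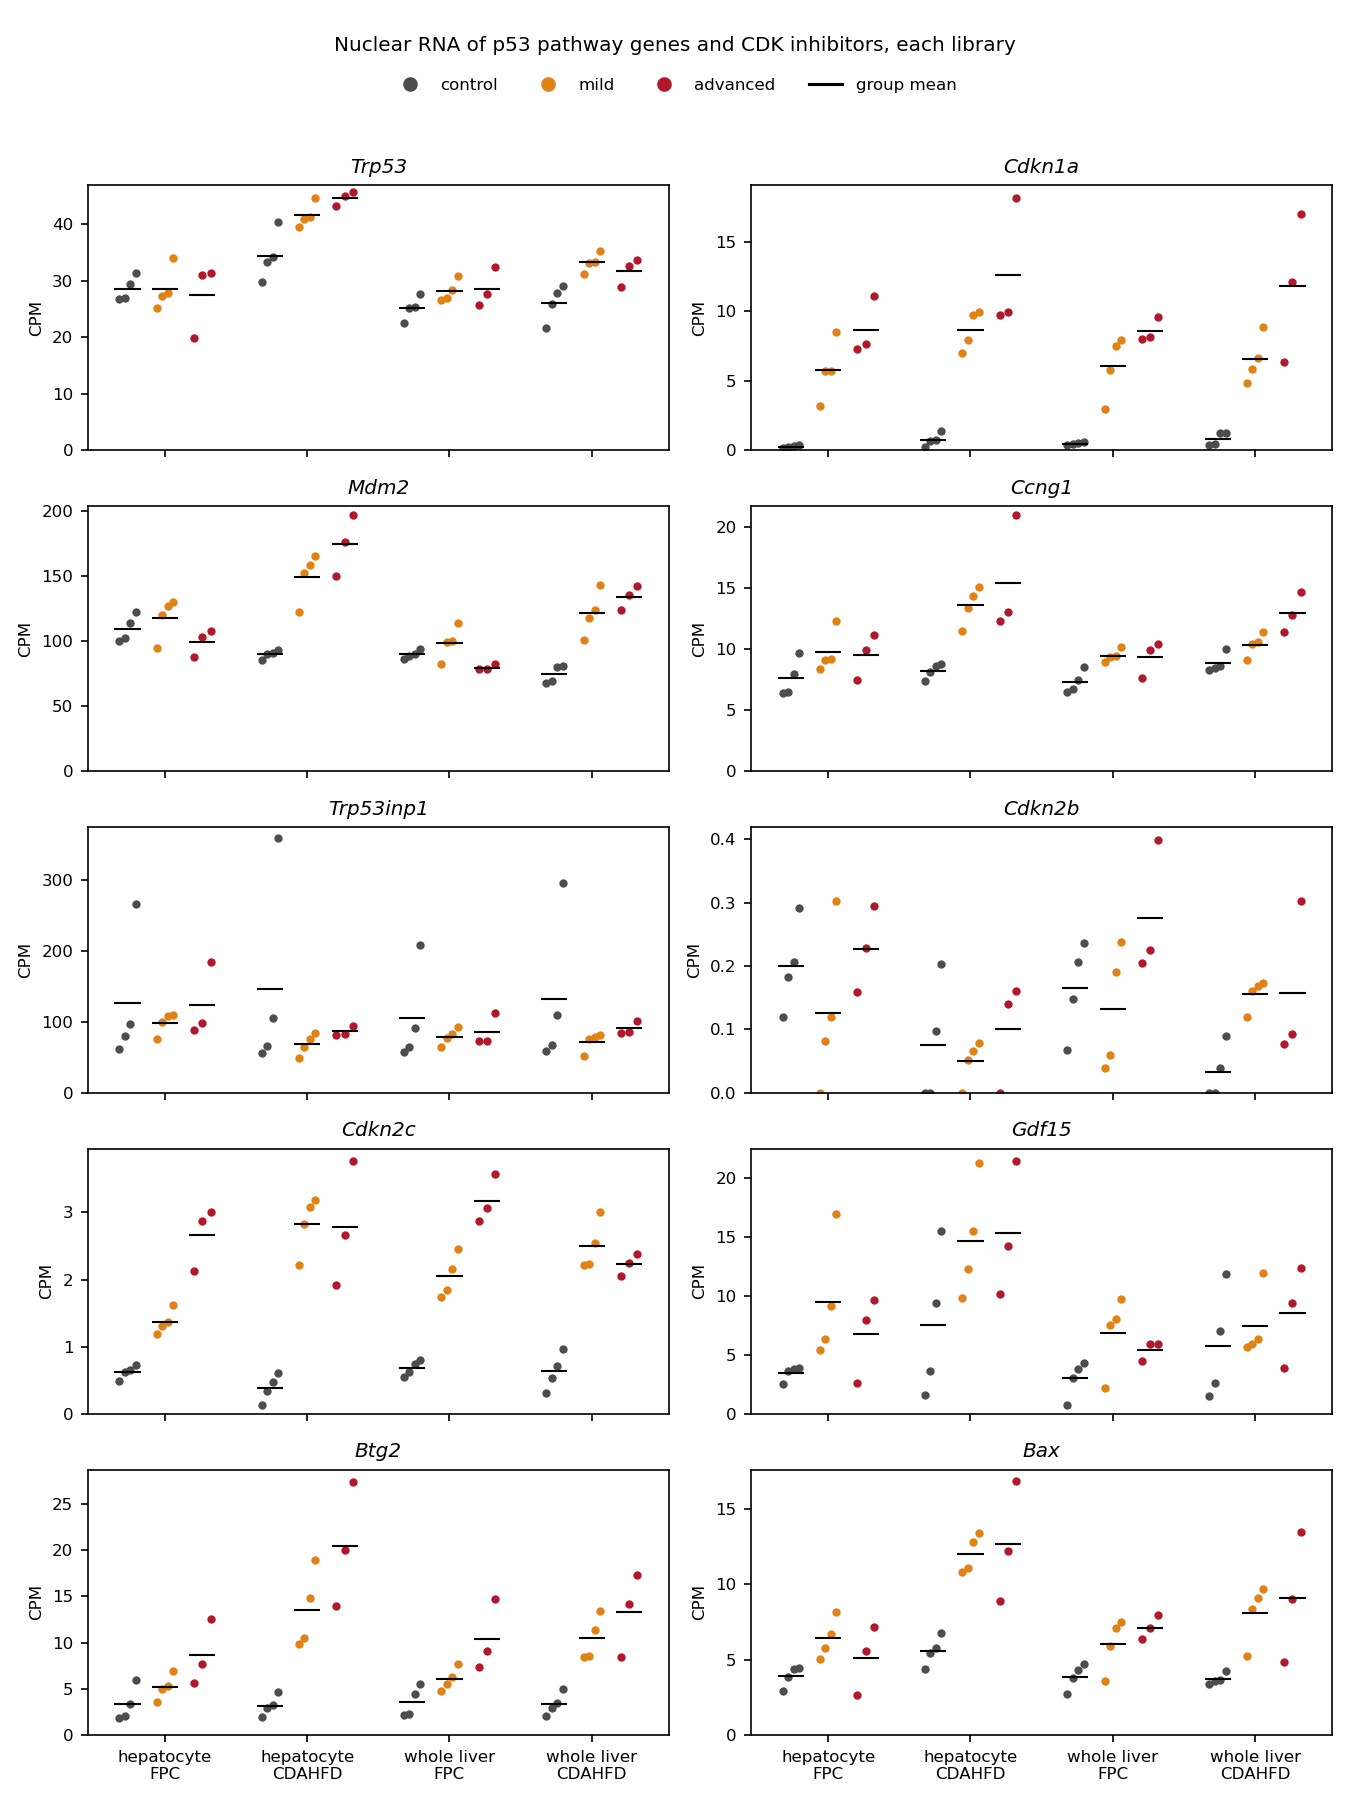
CPM of each gene (vertical axes, linear, 1 panel a gene) in each of the 44 libraries by fraction and diet, with points coloured by disease state and black lines at group means. Cdkn1a and Cdkn2c of all mild and advanced mice lie above those of the controls of the same fraction and diet, and Trp53inp1 has 1 high control mouse in each diet.

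Levels of different genes were compared per kilobase of counted length. In FPC control hepatocyte nuclei Trp53inp1 (7.03 ± 5.24 CPM per kb, SD, n = 4) and Mdm2 (5.01 ± 0.485) were highest, and Trp53 (2.48 ± 0.195), Gdf15 (1.55 ± 0.287) and Ccng1 (1.14 ± 0.229) followed. Trp53inp1 and Mdm2 did not differ beyond the spread of the former, nor did Btg2 (0.772 ± 0.446) and Bax (0.753 ± 0.136). The INK4 inhibitors Cdkn2c (0.106 ± 0.0167) and Cdkn2b (0.0421 ± 0.0149) and the p21 gene Cdkn1a (0.0273 ± 0.00922) were lowest, and Cdkn2b and Cdkn1a did not differ beyond their spread. In advanced FPC mice Cdkn1a stood at 0.891 ± 0.216 CPM per kb (n = 3), next to Bax at 0.987 ± 0.438 and within its spread, while Trp53inp1 and Mdm2 remained first and second with 6.89 ± 2.97 and 4.55 ± 0.495. In advanced CDAHFD mice the order began with Mdm2 (7.95 ± 1.08), Gdf15 (6.84 ± 2.55) and Trp53inp1 (4.81 ± 0.397), where in the controls of that diet it had begun with Trp53inp1 (8.17 ± 7.98) and Mdm2 (4.11 ± 0.152). Mdm2 and Gdf15 did not differ beyond their spread in advanced mice, nor did Gdf15 (3.36 ± 2.79) and Trp53 (2.98 ± 0.383) in controls. Cdkn2b was lowest in CDAHFD controls and in advanced mice of both diets.

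Trp53 encodes p53 itself (11:69580359-69591873, plus strand, 11515 bases counted, mm10). Its level in hepatocyte nuclei was 26.7, 26.9, 31.4 and 29.3 CPM in FPC controls and 19.9, 31.4 and 30.9 CPM in advanced FPC mice. These groups overlapped, and the log2 fold change was 0.06 ± 0.17 (SE, adjusted p = 0.79). With CDAHFD the controls had 33.3, 34.1, 40.4 and 29.8 CPM and the advanced mice 45.6, 43.2 and 44.9 CPM. Every advanced CDAHFD library lay above every control, a rise of 0.39 ± 0.11 on the log2 scale (1.31-fold, adjusted p = 0.01) that without control mice 1 and 2 was 0.33 ± 0.15 (adjusted p = 0.08). The mild CDAHFD mice had 40.8, 44.5, 41.3 and 39.5 CPM, which overlapped with the highest control. Their log2 fold change of 0.28 ± 0.11 passed the test (adjusted p = 0.037), but not without control mice 1 and 2 (0.22 ± 0.14, adjusted p = 0.21). It also failed without any of 7 single mice, as without control mouse 4 (0.22 ± 0.10, adjusted p = 0.085) or mild mouse 2 (0.25 ± 0.12, adjusted p = 0.1). In whole liver nuclei no disease group passed the test for Trp53 (log2 fold changes of 0.13 to 0.27), and without CDAHFD control mice 1 and 2 the advanced and mild CDAHFD values were 0.28 (adjusted p = 0.17) and 0.32 (adjusted p = 0.11). Scaled by library totals all 4 groups passed (0.60 and 0.42 in advanced and mild FPC mice, adjusted p = 0.0012 and 0.011, and 0.70 and 0.65 with CDAHFD, adjusted p = 0.00049 and 0.00065). The mild CDAHFD whole liver value also passed with the stricter filter (0.29, adjusted p = 0.045) and without advanced mouse 3 (0.28, adjusted p = 0.048) or control mouse 3 (0.33, adjusted p = 0.037).

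Mdm2, the ubiquitin ligase that holds p53 down and is itself a p53 target (10:117688875-117710758, minus strand), passed the test against controls with CDAHFD and not with FPC. In FPC controls its hepatocyte level was 99.8, 102, 122 and 114 CPM, and in advanced FPC mice 108, 103 and 87.5 CPM. The groups overlapped and the log2 fold change was -0.02 ± 0.13 (adjusted p = 0.93), which became 0.39 (adjusted p = 0.027) when libraries were scaled by their totals. In CDAHFD controls the level was 90.6, 93.3, 90.4 and 85.4 CPM, in mild mice 165, 152, 122 and 158 CPM, and in advanced mice 176, 197 and 150 CPM. All 7 CDAHFD mice with disease lay above all 4 controls. The rise was 0.97 ± 0.12 on the log2 scale in advanced mice (1.96-fold, adjusted p = 4.2e-05) and 0.74 ± 0.12 in mild mice (1.68-fold, adjusted p = 0.00023), or 0.97 ± 0.17 and 0.75 ± 0.16 without control mice 1 and 2. Whole liver nuclei gave 0.80 ± 0.12 (adjusted p = 0.00014) in advanced CDAHFD mice, and 0.91 ± 0.15 without those mice. In whole liver of advanced FPC mice the levels of 78.5, 82.1 and 78.4 CPM all lay below the control values of 86.6, 90.4, 94 and 88.4 CPM, with a log2 fold change of -0.20 ± 0.11 (adjusted p = 0.12) that passed without mild mouse 1 (-0.23, adjusted p = 0.022).

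The difference between the diets was tested directly in hepatocyte nuclei by subtracting the change with FPC from that with CDAHFD, each against its own controls. Diet, length of feeding and the group of mice cannot be told apart in this test. Mdm2 was the 1 gene of 9 that passed it in advanced mice, where 11.9% of all genes passed, with a difference of 1.04 ± 0.18 on the log2 scale (adjusted p = 0.0019). In mild mice 2 of 9 passed, Mdm2 (0.63 ± 0.17, adjusted p = 0.021) and Cdkn2c (1.69 ± 0.44, adjusted p = 0.018), against 12.2% of all genes. The Mdm2 difference in mild mice no longer passed without mild CDAHFD mouse 1 (0.57 ± 0.17, adjusted p = 0.053). For Cdkn1a the difference was -0.99 ± 0.63 in advanced mice (adjusted p = 0.31) and -0.88 ± 0.60 in mild mice (adjusted p = 0.35). Without CDAHFD control mice 1 and 2 these were -0.14 ± 0.66 and -0.03 ± 0.51, while Mdm2 gave 1.08 ± 0.21 (adjusted p = 0.0061) and 0.67 ± 0.20 (adjusted p = 0.037), and Cdkn2c 2.37 ± 0.51 (adjusted p = 0.0095) in mild mice. Btg2 (1.27 ± 0.54, adjusted p = 0.13), Bax (0.75 ± 0.39, 0.21), Ccng1 (0.53 ± 0.28, 0.22) and Trp53 (0.39 ± 0.20, 0.22) did not pass in advanced mice. Neither did Cdkn2c (0.65 ± 0.46, 0.36), Trp53inp1 (-0.79 ± 0.77, 0.52) and Gdf15 (0.01 ± 0.86, 0.99). In mild mice Btg2 gave 1.45 ± 0.51 (adjusted p = 0.065), which DESeq2 called (1.44, adjusted p = 0.031).

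**Figure D2:**
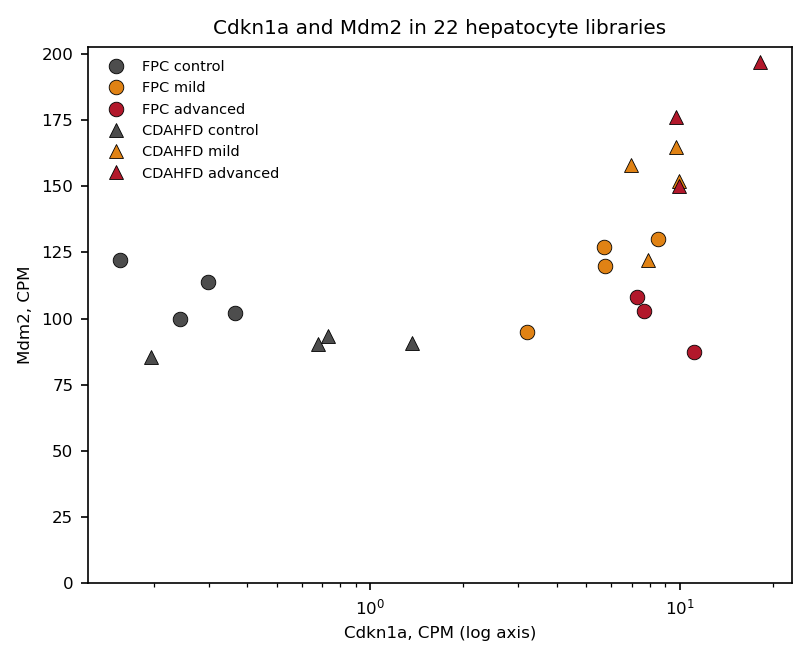
Mdm2 (vertical axis, CPM, linear) against Cdkn1a (horizontal axis, CPM, log scale) in the 22 hepatocyte libraries, with circles for FPC, triangles for CDAHFD and colours for disease state. Advanced FPC mice have 7.29 to 11.1 CPM of Cdkn1a at 87.5 to 108 CPM of Mdm2, and advanced CDAHFD mice 9.74 to 18.2 CPM at 150 to 197 CPM.

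Cdkn1a encodes p21, the CDK inhibitor through which p53 arrests the cell cycle (17:29090986-29100722, plus strand, 9737 bases counted). An unnamed annotated transcript on the opposite strand covers 10.7% of it, and the strand setting of the counting is not given in the sources used here. Hepatocyte nuclei of FPC controls held 0.242, 0.366, 0.155 and 0.299 CPM, which are 19 counts over the 4 libraries. Mild FPC mice held 3.21, 8.5, 5.72 and 5.69 CPM and advanced FPC mice 7.29, 7.65 and 11.1 CPM. No library with disease came near the controls: the rise was 4.51 ± 0.38 on the log2 scale in mild mice (22.9-fold, adjusted p = 4e-06) and 5.15 ± 0.39 in advanced mice (35.4-fold, adjusted p = 3.2e-07). Of all genes tested, 0.422% had a larger log2 fold change in mild and 1.77% in advanced FPC mice.

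With CDAHFD, Cdkn1a control levels were 1.36, 0.73, 0.676 and 0.195 CPM in hepatocyte nuclei, and mild mice had 9.76, 9.95, 7.92 and 6.99 CPM. Advanced CDAHFD mice had 9.74, 18.2 and 9.93 CPM. All mice with disease again lay above all controls, by 3.55 ± 0.40 on the log2 scale in mild mice (11.7-fold, adjusted p = 2.5e-05) and 4.09 ± 0.42 in advanced mice (17.1-fold, adjusted p = 8.3e-06). Control mice 1 and 2 had higher Cdkn1a than control mouse 4, the lowest, and without the former the values were 4.37 ± 0.49 and 4.91 ± 0.50. In whole liver nuclei Cdkn1a rose 17.6-fold in advanced FPC mice (4.14 ± 0.33, adjusted p = 5.4e-07) and 13.9-fold in advanced CDAHFD mice (3.79 ± 0.42, adjusted p = 1e-05; 3.80 ± 0.54 without control mice 1 and 2), without overlap of the groups. The authors' deposited table gives log2 fold changes of 5.16 and 4.15 for advanced against control hepatocyte nuclei with FPC and CDAHFD.

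Cdkn2c encodes p18-INK4c, an inhibitor of CDK4 and CDK6 (4:109660876-109666756, minus strand). With FPC, and not with CDAHFD, it was the 1 gene of the set called higher in advanced than in mild disease. In FPC hepatocyte nuclei its level was 0.63, 0.489, 0.721 and 0.659 CPM in controls, 1.19, 1.37, 1.31 and 1.62 CPM in mild mice and 2.13, 2.87 and 3 CPM in advanced mice. The 3 groups did not overlap. The log2 fold change was 1.2 ± 0.26 in mild (2.3-fold, adjusted p = 0.003) and 2.20 ± 0.26 in advanced mice (4.59-fold, adjusted p = 1.8e-05). In CDAHFD hepatocyte nuclei the controls had 0.603, 0.472, 0.135 and 0.342 CPM, mild mice 3.08, 2.83, 3.19 and 2.22 CPM and advanced mice 3.77, 2.66 and 1.92 CPM. Mild and advanced mice overlapped with each other and not with controls, with rises of 2.82 ± 0.37 (7.06-fold, adjusted p = 7e-05) and 2.79 ± 0.39 (6.9-fold, adjusted p = 8e-05). Without CDAHFD control mice 1 and 2 these were 3.45 ± 0.50 and 3.42 ± 0.51. Whole liver nuclei showed rises of 2.17 ± 0.22 (adjusted p = 3e-06) in advanced FPC mice and 1.80 ± 0.31 (adjusted p = 0.00028) in advanced CDAHFD mice, the latter 1.82 ± 0.40 without control mice 1 and 2.

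Cdkn2b, the gene of the related inhibitor p15-INK4b (4:89306289-89311032, minus strand), had 143 counts in all 44 libraries, against 1806 for Cdkn2c. Its level was between 0 and 0.399 CPM in every library, and 7 libraries had 0 counts. Advanced FPC hepatocyte nuclei had 17 counts and controls 15, a ratio of CPM of 1.08 with a 95% interval of 0.505 to 2.31 that covers counting error only. Advanced CDAHFD hepatocyte nuclei had 6 counts and controls 5 (1.75, 0.445 to 7.24). No change in hepatocyte nuclei was detectable at this depth. In whole liver, advanced CDAHFD mice had 15 counts and controls 3 (4.8, 1.36 to 25.9). Advanced mouse 2 holds 10 of these 15 counts and control mouse 1 holds 2 of the 3: the ratio was 2.51 (0.488 to 16.2) without the former and 10.7 (1.65 to 452) without the latter. Mild mice had 15 counts, 3 or 4 in each library (4.53, 1.28 to 24.4, or 10.1, 1.56 to 426, without control mouse 1).

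Btg2 encodes an antiproliferative adaptor of mRNA deadenylation (1:134074865-134079155, minus strand). In FPC hepatocyte nuclei its level was 2.04, 1.83, 3.4 and 5.99 CPM in controls and 5.6, 12.5 and 7.72 CPM in advanced mice. The lowest advanced mouse lay below the highest control, control mouse 4, and the rise was 1.5 ± 0.39 on the log2 scale (2.83-fold, adjusted p = 0.0068). Mild FPC mice gave 0.74 (adjusted p = 0.15), and 1.18 ± 0.34 without control mouse 4 (adjusted p = 0.022). In CDAHFD hepatocyte nuclei Btg2 was 1.91, 2.96, 4.6 and 3.22 CPM in controls and 14, 27.4 and 20 CPM in advanced mice, with 10.5, 18.9, 14.8 and 9.87 CPM in mild mice. Here no mouse with disease overlapped with a control, and the rises were 2.71 ± 0.32 (6.57-fold, adjusted p = 2.7e-05) and 2.11 ± 0.31 (4.32-fold, adjusted p = 0.00015). Without control mice 1 and 2 these were 2.38 ± 0.37 and 1.78 ± 0.36. In whole liver Btg2 rose by 1.51 ± 0.33 (adjusted p = 0.0018) in advanced FPC mice and by 1.94 ± 0.30 (adjusted p = 0.00015) in advanced CDAHFD mice, the latter 1.60 ± 0.34 without those mice.

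Ccng1, the gene of cyclin G1, a p53 target that feeds back on MDM2 (11:40748552-40755286, minus strand), changed with CDAHFD by less than Btg2. Its hepatocyte level was 8.84, 8.67, 8.11 and 7.42 CPM in CDAHFD controls and 12.3, 21 and 13.1 CPM in advanced mice. The groups did not overlap, and the rise was 0.92 ± 0.19 on the log2 scale (1.89-fold, adjusted p = 0.0013), with 0.73 ± 0.18 in mild mice (adjusted p = 0.0042). Without control mice 1 and 2 these were 0.98 ± 0.25 and 0.79 ± 0.24. Advanced CDAHFD whole liver gave 0.50 ± 0.14 (adjusted p = 0.0078; 0.57 ± 0.17 without those mice, and 0.41 without advanced mouse 2, adjusted p = 0.051). In FPC mice the controls had 6.45, 7.94, 9.74 and 6.53 CPM and the advanced mice 11.2, 9.97 and 7.51 CPM. These overlapped, and 0.44 ± 0.20 did not pass (adjusted p = 0.094), though it did without control mouse 3 (0.57 ± 0.21, adjusted p = 0.047).

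Trp53inp1, whose product is a p53-induced nuclear protein linked to autophagy and cell death (4:11156441-11174377, plus strand), had 1 far higher control mouse in each diet. FPC control hepatocyte nuclei had 61.8, 96.7, 80.3 and 266 CPM, and CDAHFD controls 56.3, 65.4, 106 and 359 CPM. The high values belong to control mouse 4 of each diet, which were also highest in whole liver with 208 and 296 CPM. Advanced mice had 185, 97.7 and 88.3 CPM with FPC and 82.8, 81.7 and 94.5 CPM with CDAHFD, so that all groups overlapped. The log2 fold changes were 0.09 ± 0.44 (adjusted p = 0.89) and -0.75 ± 0.56 (adjusted p = 0.27). These values rested on single controls: without control mouse 4 the FPC value was 0.75 ± 0.27 (adjusted p = 0.038), and without mouse 4 the CDAHFD value was 0.20 ± 0.24 (adjusted p = 0.48). In mild CDAHFD mice it was -1.10 ± 0.51 (adjusted p = 0.09), or -0.14 ± 0.22 (adjusted p = 0.61) without mouse 4, and DESeq2 called it (-1.11, adjusted p = 0.032). Without control mice 1 and 2, which leaves mouse 4 as 1 of 2 controls, the values were -1.44 ± 0.40 (adjusted p = 0.014) in advanced and -1.79 ± 0.37 (adjusted p = 0.0037) in mild mice. In whole liver no disease group passed for Trp53inp1, whose advanced values were -0.32 ± 0.39 (FPC) and -0.60 ± 0.49 (CDAHFD), but CDAHFD passed without control mice 1 and 2 (-1.2 and, in mild mice, -1.56, adjusted p = 0.013 and 0.0026). Without control mouse 4 the CDAHFD whole liver values were 0.17 ± 0.22 (adjusted p = 0.55) and, in mild mice, -0.19 ± 0.21 (adjusted p = 0.47).

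Bax encodes the mitochondrial pore protein of apoptosis (7:45461695-45466898, minus strand), and 17.6% of it is shared with the predicted gene Gm45808 on the same strand, which is not in the count table. In FPC hepatocyte nuclei its level was 4.41, 4.46, 3.86 and 2.93 CPM in controls, 5.06, 8.19, 5.76 and 6.73 CPM in mild mice and 2.67, 5.56 and 7.18 CPM in advanced mice. Mild mice lay above all controls with 0.79 ± 0.29 (adjusted p = 0.051), which DESeq2 called (0.76, adjusted p = 0.033), while advanced mice overlapped with controls through advanced mouse 1 (0.51 ± 0.31, adjusted p = 0.2). Without advanced mouse 1 the advanced value was 0.83 ± 0.25 (adjusted p = 0.018). In CDAHFD hepatocyte nuclei controls had 5.43, 5.79, 6.76 and 4.39 CPM, mild mice 13.4, 12.8, 11.1 and 10.8 CPM and advanced mice 8.91, 16.9 and 12.2 CPM. No group with disease overlapped with the controls, and Bax rose by 1.2 ± 0.22 on the log2 scale in advanced mice (2.29-fold, adjusted p = 0.00053) and by 1.12 ± 0.20 in mild mice (adjusted p = 0.00067), or 1.18 ± 0.29 and 1.10 ± 0.28 without control mice 1 and 2. In whole liver Bax rose 1.81-fold (adjusted p = 0.01) in advanced FPC and 2.37-fold (adjusted p = 0.0033; 1.28 ± 0.40 on the log2 scale without those mice) in advanced CDAHFD mice.

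Gdf15 encodes a secreted stress cytokine of the TGF-beta superfamily that acts on appetite through the brainstem (8:70629394-70631635, minus strand). FPC hepatocyte nuclei had 2.52, 3.91, 3.61 and 3.83 CPM in controls, 5.43, 17, 9.18 and 6.32 CPM in mild mice and 2.64, 8.01 and 9.71 CPM in advanced mice. Mild mice lay above all controls and rose by 1.53 ± 0.43 on the log2 scale (2.9-fold, adjusted p = 0.015). Advanced mice overlapped with controls through advanced mouse 1, the same mouse as for Bax, and gave 1.09 ± 0.45 (adjusted p = 0.063), or 1.49 ± 0.39 without it (adjusted p = 0.0082), and DESeq2 called it (1.09, adjusted p = 0.032). CDAHFD controls ranged from 1.56 to 15.5 CPM and overlapped with mild (9.8 to 21.3 CPM) and advanced mice (10.2 to 21.5 CPM). The CDAHFD values of 1.05 ± 0.59 (adjusted p = 0.14) and, in mild mice, 0.99 ± 0.55 (adjusted p = 0.15) passed without the highest control, control mouse 3, as 1.66 ± 0.54 (adjusted p = 0.023) and 1.59 ± 0.52 (adjusted p = 0.024). Without control mice 1 and 2 they were 0.86 ± 0.74 and 0.79 ± 0.71. In whole liver Gdf15 did not pass in advanced FPC (0.84 ± 0.51, adjusted p = 0.18; 1.29 with library totals, adjusted p = 0.046) or advanced CDAHFD mice (0.54 ± 0.62, adjusted p = 0.49).

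**Figure D3:**
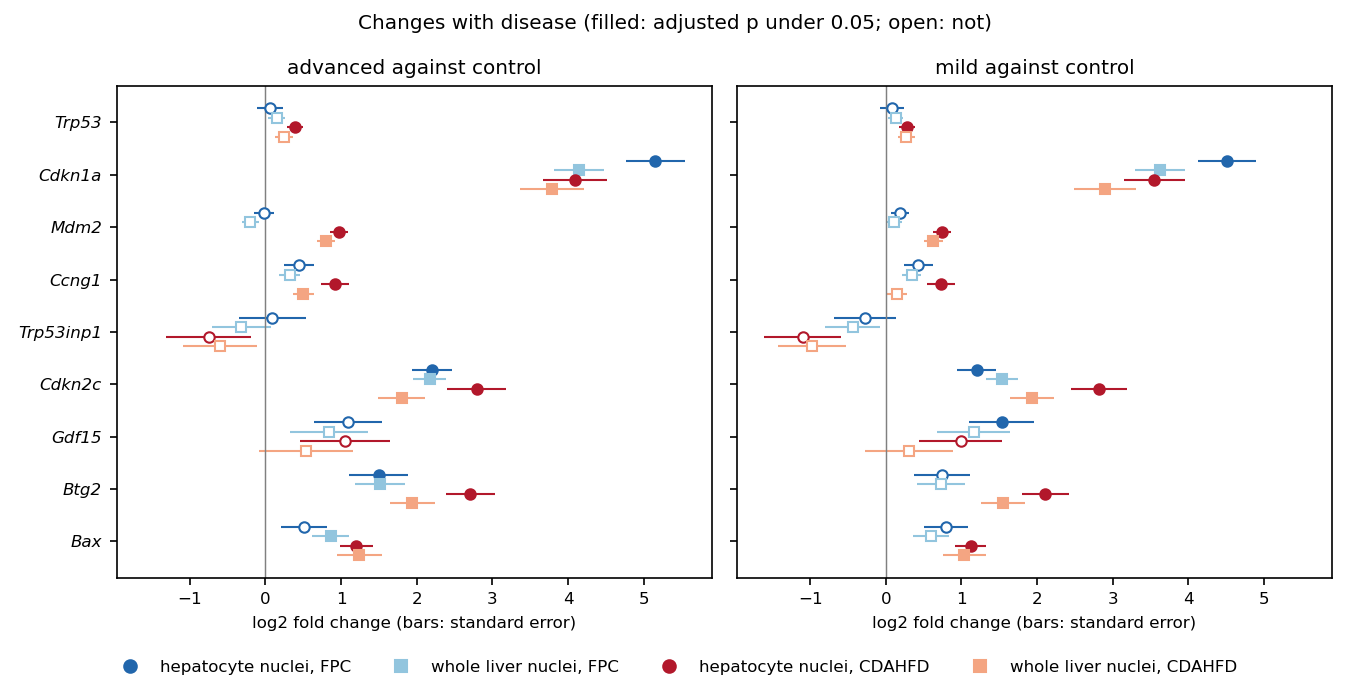
Log2 fold change (horizontal axes) of the 9 testable genes against controls in advanced (left) and mild (right) mice, with circles for hepatocyte and squares for whole liver nuclei, blue for FPC and red for CDAHFD, bars for the standard error and filled symbols for adjusted p under 0.05. Cdkn1a lies between 2.90 and 5.15 in all 8 comparisons, and Mdm2 between -0.20 and 0.19 with FPC and between 0.63 and 0.97 with CDAHFD.

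Advanced was also compared with mild disease, which asks what differs between fibrotic and non-fibrotic livers on the same diet. In FPC hepatocyte nuclei Cdkn2c was the 1 gene of 9 that passed (0.99 ± 0.24 on the log2 scale, adjusted p = 0.012), where 20.2% of all genes passed and 12.7% were higher. Without advanced mouse 3 it was 0.90 ± 0.28 (adjusted p = 0.05). Whole liver nuclei gave 0.63 ± 0.20 for Cdkn2c (adjusted p = 0.036) as the 1 call of 9, with 22.3% of all genes called and 13.3% higher, and this call was lost when any of 6 single mice was left out. Cdkn1a did not pass in FPC hepatocyte nuclei (0.63 ± 0.29, adjusted p = 0.16). With CDAHFD none of the 9 genes passed edgeR's test in hepatocyte nuclei (2.82% of all genes did), none had an unadjusted p under 0.05, and DESeq2 called 0. In CDAHFD whole liver 0 of 9 passed with either tool (1.88% of all genes by edgeR's test), and 2, Cdkn1a and Ccng1, had an unadjusted p under 0.05.

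Hepatocyte nuclei were next compared with whole liver nuclei of the same mice. Gdf15 in hepatocyte nuclei stood at 196% and 179% of its whole liver level in mild and advanced CDAHFD mice, Btg2 at 154% in advanced and Bax at 148% and 139% in mild and advanced CDAHFD mice, and none of these passed in the fit without pairing. Cdkn1a in hepatocyte nuclei was 55.2%, 95.5% and 101% of its whole liver level in FPC control, mild and advanced mice, and 87.8%, 132% and 107% with CDAHFD. For comparison, recruited macrophage markers in hepatocyte nuclei of advanced mice summed to 27.6% (FPC) and 11.8% (CDAHFD) of whole liver, sinusoidal endothelial markers to 12.1% and 17.1%, cholangiocyte markers to 156% and 112%, and hepatocyte markers to 137% and 171%. Kupffer cell markers summed to 64.8% (FPC) and 80.7% (CDAHFD) in advanced mice, mesothelial markers to 113% and 48%, and stellate cell markers to 20.5% and 31.9%. Lymphocyte markers were at 9.86% and 6.37% and neutrophil markers at 8% and 7.03%. Which cells the Cdkn1a RNA came from was not tested. Of the 9 genes, 0 differed between the fractions in FPC controls (17.5% of all genes did) and 0 in FPC advanced mice (22.5%) by edgeR's test or DESeq2, and 1 in each, Mdm2, had an unadjusted p under 0.05. In mild FPC mice Cdkn2c was lower in hepatocyte nuclei (-0.59 ± 0.19, adjusted p = 0.023), with 26.2% of all genes changed and 19% lower, and any of the 4 mild mice left out ended that call. With the mouse as a replicate block, Mdm2 was higher in hepatocyte nuclei in FPC control, mild and advanced mice (0.22 ± 0.06, 0.25 ± 0.06 and 0.27 ± 0.07, adjusted p = 0.0097, 0.0027 and 0.0045). The block also called Trp53inp1 in FPC mild and advanced mice (0.30 ± 0.07 and 0.43 ± 0.08, adjusted p = 0.0026 and 0.00053) and a lower Bax in advanced FPC mice (-0.60 ± 0.23, adjusted p = 0.048). Over all genes it also called more between the FPC fractions than the fit without pairing, with the numbers in the last section. These gains are therefore not particular to the 9 genes. In CDAHFD mice it called Gdf15 and Bax in mild (0.99 ± 0.35 and 0.60 ± 0.22, adjusted p = 0.031 and 0.032) and Btg2 in advanced mice (0.65 ± 0.21, adjusted p = 0.022).

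In CDAHFD mice Trp53 and Mdm2 were called higher in hepatocyte nuclei than in whole liver by the fit without pairing. Only the Trp53 call in advanced mice held under each scaling. In advanced mice Trp53 was 45.6, 43.2 and 44.9 CPM in hepatocyte nuclei and 33.6, 32.5 and 28.9 CPM in whole liver (0.50 ± 0.12, adjusted p = 0.0021), and Mdm2 gave 0.39 ± 0.13 (adjusted p = 0.019). Neither gene overlapped between these fractions, and the Mdm2 call was lost without advanced mouse 1 (0.32, adjusted p = 0.13) or 2 (0.35, adjusted p = 0.11). These were 2 of 9 genes, where 43.2% of all genes changed and 20.1% were higher, so 2 of 9 is near the background. With library totals the Mdm2 call was lost (0.29, adjusted p = 0.084). In mild mice 3 of 9 were higher, Trp53 (0.33, adjusted p = 0.013), Mdm2 (0.30, 0.027) and Ccng1 (0.40, 0.034), against 50.7% of all genes changed and 23.1% higher. Without mild mouse 2 none of these held (0.28, 0.27 and 0.34, adjusted p = 0.08, 0.11 and 0.13), and mild mouse 4 left out ended the Mdm2 and Ccng1 calls (0.27 and 0.36, adjusted p = 0.11 and 0.12). None held with library totals either (0.20, 0.17 and 0.27, adjusted p = 0.16, 0.23 and 0.17). DESeq2, and its size factors in edgeR, each ended the Mdm2 and Ccng1 calls. In controls Trp53 (0.44 ± 0.11, adjusted p = 0.0031) and Mdm2 (0.31 ± 0.11, adjusted p = 0.038) were called, against 31% and 14.6%, and in this fit without pairing neither was called without control mice 1 and 2 or with the scaling of DESeq2's size factors in edgeR. The median log2 fold change of all genes between the fractions was 0.20 in these controls.

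Whether the change with disease differed between the fractions was tested with an interaction term, advanced against control. No gene of the 9 passed edgeR's test or DESeq2 in either diet, and 0 had an unadjusted p under 0.05, where 3.82% (FPC) and 10.2% (CDAHFD) of all genes passed. For Cdkn1a the difference, hepatocyte minus whole liver, was 0.88 ± 0.57 (adjusted p = 0.79) with FPC and 0.21 ± 0.65 (adjusted p = 0.89) with CDAHFD (1.05 ± 0.83 without control mice 1 and 2), standard errors that leave room for differences of over 1 on the log2 scale. These standard errors are from the fit that does not pair the fractions of a mouse. With the mouse as a replicate block none of the 9 genes gained a call.

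Other genes of the pathway were counted in lists for advanced against control hepatocyte nuclei. The shares of all genes to read these counts against are 26.5% higher and 46.9% changed with FPC and 30.3% and 59.5% with CDAHFD. Of 24 tested genes on a list of further p53 targets, 10 rose and 2 fell with FPC (median log2 fold change 0.40), and 15 rose and 4 fell with CDAHFD (0.82). Eda2r, a p53-induced receptor of the tumour necrosis factor family, rose with both diets (3.45 ± 0.52, adjusted p = 0.00014, and 3.31 ± 0.44, adjusted p = 5.8e-05, the latter 4.43 ± 0.46 without control mice 1 and 2). Apaf1, the core of the apoptosome, rose with FPC from 7.87 ± 1.51 CPM (SD, n = 4) to 61.8 ± 10.1 CPM (n = 3; 3.09 ± 0.17, adjusted p = 2.1e-08) and with CDAHFD (3.13 ± 0.11, adjusted p = 8.6e-09), and the death receptor gene Tnfrsf10b rose with both diets as well (2.91 ± 0.27, adjusted p = 2.3e-06, and 3.25 ± 0.38, adjusted p = 2.2e-05, the latter 3.93 ± 0.41 without those mice). Phlda3, an inhibitor of AKT, had 43 counts in advanced and 2 in control FPC mice (ratio 20.4, 95% counting interval 5.31 to 174), and 45 against 0 with CDAHFD, at least 21.9-fold higher against a floor of 3 counts over the group. Genes that fell include Sesn1, a stress-induced inhibitor of mTORC1 signalling (-0.42 ± 0.15, adjusted p = 0.038, and -0.71 ± 0.12, adjusted p = 0.00038), Tigar (-0.63 ± 0.20, adjusted p = 0.018, and -0.62 ± 0.18, adjusted p = 0.011) and, with CDAHFD, Ei24 (-1.01 ± 0.14, adjusted p = 8.6e-05), which with FPC was -0.33 ± 0.14 (adjusted p = 0.069). The FPC call of Sesn1 was lost without any of 6 single mice, as without control mouse 3 (-0.30, adjusted p = 0.11), and that of Tigar without advanced mouse 1 or 2 and with library totals (-0.23, adjusted p = 0.36). Library totals also ended the Sesn1 call with both diets (-0.03, adjusted p = 0.9, with FPC and -0.22, adjusted p = 0.13, with CDAHFD). The CDAHFD values of Apaf1, Tigar and Trp53bp1 and the FPC values of Tnfrsf10b and Mki67 were not refitted under alternatives. Without CDAHFD control mice 1 and 2 the CDAHFD counts of this list were 14 and 3, where 6990 of all genes were called, against 7903 in the main fit.

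Of 19 regulators and cofactors of p53, 2 rose and 1 fell with FPC (median 0.03), and 6 rose and 5 fell with CDAHFD (0.07), or 3 and 3 without control mice 1 and 2. The share of regulators that rose with CDAHFD is near that of all genes, and with FPC it lies below it. Mdm4, the partner of MDM2, did not pass with either diet (-0.01 ± 0.10, adjusted p = 0.93, and 0.07 ± 0.10, adjusted p = 0.56), though scaling by library totals gave 0.39 (adjusted p = 0.0058) and 0.56 (adjusted p = 0.00022). Rchy1 and Cop1 encode further ubiquitin ligases that act on p53. Rchy1 fell with both diets (-0.42 ± 0.12, adjusted p = 0.014, and -0.89 ± 0.14, adjusted p = 0.00015) and Cop1 with CDAHFD (-0.81 ± 0.12, adjusted p = 0.00015; -0.20 with FPC, adjusted p = 0.3), the FPC call of Rchy1 being lost without advanced mouse 2 or 3 and with library totals (-0.02, adjusted p = 0.91). Trp53bp1, which binds at DNA breaks, rose with FPC (0.62 ± 0.18, adjusted p = 0.011; 0.46 without advanced mouse 2, adjusted p = 0.066) and with CDAHFD (0.47 ± 0.11, adjusted p = 0.0029). The acetyltransferase gene Kat5 (0.75 ± 0.12, adjusted p = 0.00024) and Ppp1r13l (0.82 ± 0.25, adjusted p = 0.012; 0.63 without advanced mouse 2, adjusted p = 0.069) rose with CDAHFD and were 0.10 ± 0.22 (adjusted p = 0.75) and 0.43 ± 0.26 (adjusted p = 0.19) with FPC. The checkpoint kinase gene Chek1 passed with both diets (0.85 ± 0.30, adjusted p = 0.033, and 1.55 ± 0.58, adjusted p = 0.037) and failed without any of 5 single mice with FPC and 4 with CDAHFD, as without advanced CDAHFD mouse 1 (0.82, adjusted p = 0.25), and without CDAHFD control mice 1 and 2 together (0.90, adjusted p = 0.21).

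Of 21 tested genes of the CDK inhibitors and the RB axis, 10 rose and 1 fell with FPC (median 0.57), and 11 rose and 2 fell with CDAHFD (0.66). The members that rose most are cyclins, which drive CDKs and do not inhibit them: Ccnd1 rose by 4.85 ± 0.30 (adjusted p = 6.5e-08) with FPC and 4.29 ± 0.45 (adjusted p = 1.4e-05) with CDAHFD, followed by Ccnd2 (3.69 and 2.26) and Ccne1 (2.47 and 2.69). Rbl2, the gene of the pocket protein p130, fell with both diets (-1.19 ± 0.12, adjusted p = 4.5e-06, and -1.06 ± 0.14, adjusted p = 6.2e-05), and Rb1 fell with CDAHFD (-0.80 ± 0.13, adjusted p = 0.00021; -0.31 with library totals, adjusted p = 0.057) and was -0.19 ± 0.14 with FPC (adjusted p = 0.29). Cdkn1b, encoding the CDK inhibitor p27, was 0.12 ± 0.21 with FPC (adjusted p = 0.69) and rose by 0.66 ± 0.20 with CDAHFD (adjusted p = 0.012; 0.50 without advanced mouse 1, adjusted p = 0.061). Cdkn2a, the gene of p16-INK4a and p19-ARF, had 7 counts in advanced and 2 in control FPC libraries (ratio 3.32, 0.632 to 32.8) and 1 in each group with CDAHFD, so no change was detectable at this depth.

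A list of mitotic genes that p53 and p21 repress through the DREAM complex went up: 17 of 20 rose and 0 fell with FPC (median 2.72), and 18 of 20 rose and 0 fell with CDAHFD (3.73). Melk (4.94 ± 0.40, adjusted p = 5.6e-07) and Bub1 (4.80 ± 0.52, adjusted p = 8e-06) were among the genes that rose most with FPC, beside Aurkb with 89 counts against 2 (ratio 42.2, 11.3 to 354). The proliferation marker Mki67 rose by 4.73 ± 0.41 with FPC (adjusted p = 1.6e-06), and with CDAHFD from 0.248 ± 0.0785 to 77.4 ± 45.2 CPM (8.29 ± 0.43, adjusted p = 1.5e-07), and Aurkb and Cdc25c were at least 30.6-fold and at least 18.5-fold higher against controls at 0 counts. Of the genes on a list of senescence-associated secretory and marker genes, 7 of 17 tested rose and 2 fell with FPC (0.61), and 10 of 18 rose and 2 fell with CDAHFD (1.5). Areg, an EGF receptor ligand, rose with both diets (6.35 and 7.56, the latter 6.87 without control mice 1 and 2), as did Mmp12, a macrophage elastase (124 counts against 3, and 514 against 2), and the chemokine gene Ccl2 (93 counts against 0, at least 29.4-fold, and 154 against 1). Dpp4, a surface peptidase, fell with both (-1.12 and -1.30), Igfbp5 with FPC (-1.60; 0.79 with CDAHFD, adjusted p = 0.15) and Glb1, the gene of lysosomal beta-galactosidase, with CDAHFD (-0.60 ± 0.19, adjusted p = 0.018; -0.47 without advanced mouse 1, adjusted p = 0.073, and -0.10 with library totals), which was 0.01 ± 0.12 with FPC. The macrophage and cholangiocyte markers given above rose in the same libraries, and their part in these lists was not tested. With genes at 0 counts in a group set to their bounds, the list medians of the p53 targets and mitotic genes were unchanged.

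**Figure D4:**
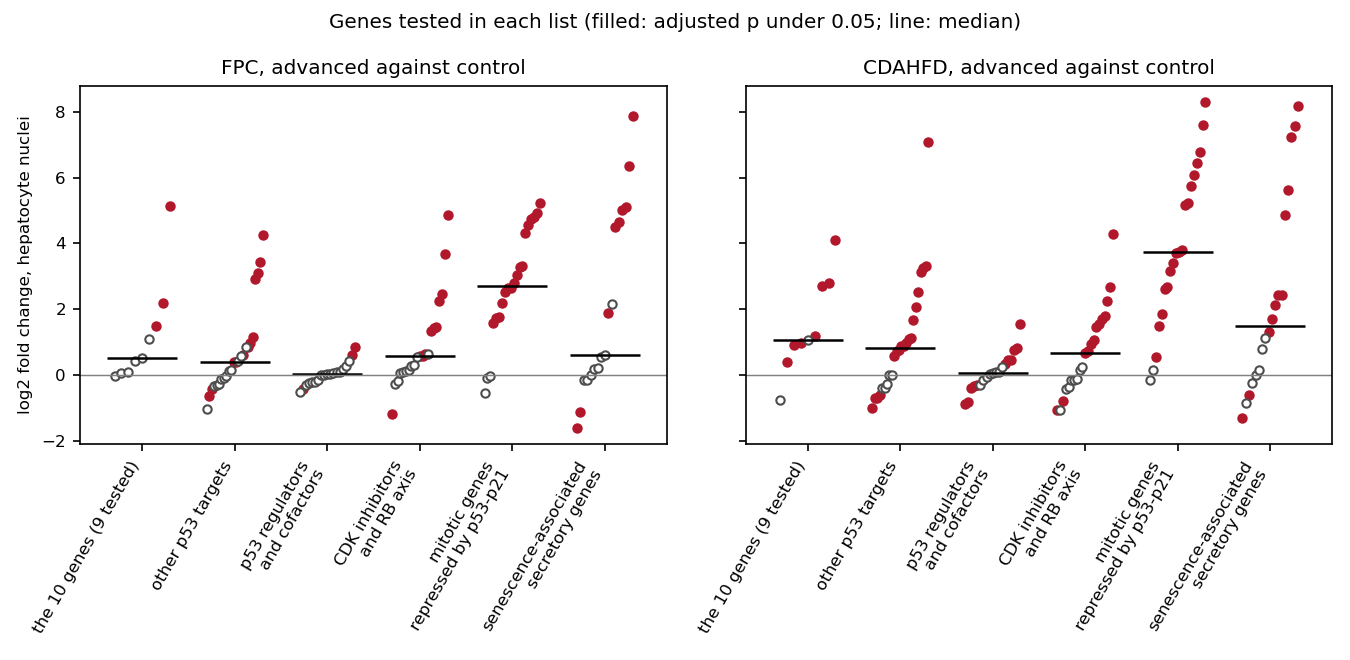
Log2 fold change (vertical axis) of every tested gene of each list in advanced against control hepatocyte nuclei, FPC left and CDAHFD right, with filled points for adjusted p under 0.05 and lines at the medians. The mitotic genes have the highest medians, 2.72 and 3.73, and the p53 regulators have medians of 0.03 and 0.07.

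In whole liver nuclei of advanced mice, where 31.3% (FPC) and 29.7% (CDAHFD) of all genes were higher, the same lists gave 8 and 13 rises and 5 and 4 falls among 25 further p53 targets (FPC and CDAHFD, advanced against control), and 1 and 2 rises and 4 and 1 falls among 19 regulators. The RB axis gave 12 of 22 and 10 of 23 rises with 1 fall each, the mitotic genes 17 of 20 rises with no fall in either diet, and the secretory genes 9 and 11 of 19 rises with 1 and 3 falls.

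Across the means of the 12 groups, genes whose log2 CPM was most like that of Cdkn1a among 13621 genes were Enc1 (Pearson r = 0.9895), Ttc39a (0.9882), Dusp8 (0.9872) and Nrg1 (0.985). These 12 points share mice and control groups, so r is a description. Nrg1, the gene of an ERBB receptor ligand, had 3.84 and 195 CPM in control and advanced FPC hepatocyte nuclei and 5.05 and 204 CPM with CDAHFD. Among the other genes of the set r with Cdkn1a was 0.9406 for Cdkn2c, 0.9021 for Btg2, 0.8090 for Bax, 0.8044 for Ccng1, 0.7202 for Gdf15, 0.5572 for Mdm2, 0.4632 for Trp53 and -0.6949 for Trp53inp1. By r the first 5 stood at places 189, 448, 1198, 1234 and 1834 among all genes compared. Many genes outside the set were thus as much like Cdkn1a or more so. The genes most like Gdf15 were Tbrg1 (0.9638), Aen (0.9605) and Phf13 (0.9586).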

How the data were processed

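RNA of whole liver nuclei and of tagged hepatocyte nuclei (50 to 100 ng, stranded kit, no poly-A selection, 50-base paired reads) was sequenced, per the labels' protocols. STAR 2.4.2a, DESeq2 1.24.0 and mm10 were used, per the submitters' processing notes. The counting tool and its strand setting are not given in the sources used here. The authors deposited raw counts for 20105 RefSeq identifiers in 44 libraries, and a table of log2 fold changes with an adjusted p-value each for hepatocyte libraries, with gene positions and lengths, per the file headers. In 94.7% of that table's genes, and in all 10 genes reported, the counted length equals the gene length. Symbols came from the authors' table (13147 identifiers) or a RefSeq gene table (6879), and 79 identifiers had none. No column of per-sample values was left unused.

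Groups came from the sample titles or, for FPC whole liver controls, the diet label. The 11 libraries of a fraction and diet, the 22 of a diet (fractions, interaction) or the 22 hepatocyte libraries (diets) were fitted with edgeR 4.0.16 (limma 3.58.1, R 4.3.3): TMM, default expression filter, robust quasi-likelihood F-test, Benjamini-Hochberg over all genes, threshold 0.05. SE is the absolute log2 fold change over the square root of F. CPM values were computed from the deposited counts, and likeness between genes used log2 (CPM + 0.5) where a group mean reached 1 CPM. The scripts were tested on simulated data. Replicates differed by more than sampling noise (lowest chi-square per degree of freedom 20.9), so the spread between mice sets the precision. Intervals and floors (3 counts) for low genes cover counting error only.

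Titles give both fractions of a mouse the same animal number. Over 12699 genes, deviations from the group means correlated by more than 0.1, and most with the own partner, in 20 of 22 mice. The CDAHFD control mice 1 (-0.200) and 2 (-0.272) correlated most with each other's partner.

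The 10 genes and the lists of other genes were chosen with earlier results of these data known. All 10 were followed in every comparison, and values that did not pass are given for the main ones. Of each other list, up to 3 genes with the largest rise and up to 2 with the largest fall past the threshold in advanced against control hepatocyte nuclei are named, plus Cdkn2a, Mdm4 and Cdkn1b, and the 5 genes most like Cdkn1a, 1 of which is not reported here, and 3 most like Gdf15. Alternatives were DESeq2 1.42.0, its size factors in edgeR (RLE), library totals, other filters (none, or 1 CPM in 3 libraries), a non-robust fit, only the 2 groups compared, the mouse as a block and leaving out each mouse.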

Additional observations from a re-analysis of the deposited data

Results flagged for a closer look

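In 3 of 80 groups of 4 libraries, 1 library lay far from the others by Dixon's criterion, which chance meets in about 1 in 20 groups. Trp53inp1 was 266.0 CPM in hepatocyte nuclei of FPC control mouse 4, where the other controls had 61.8 to 96.7 CPM. It was 359.0 CPM in CDAHFD control mouse 4, where the others had 56.3 to 106 CPM. Gdf15 was 12 CPM in whole liver nuclei of mild CDAHFD mouse 2, with 5.67 to 6.36 CPM in the others.

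The change with disease in hepatocyte nuclei differed between the diets, by a direct test in edgeR, for 2 genes. The Mdm2 change was larger with CDAHFD by 1.04 on the log2 scale in advanced mice and by 0.63 in mild mice. The Cdkn2c change was larger with CDAHFD by 1.69 in mild mice.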

How the results depend on the processing

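Of the comparisons of single genes of the set under alternatives other than leaving out a mouse, 1299 kept their status, called or not called. A call was gained in 47 and lost in 21, and 1 reversed: Mdm2 in advanced FPC hepatocyte nuclei, 0.39 with library totals. Mdm4 there also reversed, to 0.39. When 1 mouse was left out, 2304 kept their status, 35 gained a call and 37 lost it. Genes not called in either fit count as kept, so these numbers do not give the share of calls that were lost. Of 47 tests of named genes of the other lists, where a gene named for both diets counts for each, 13 had a call that changed. Library totals and leaving out CDAHFD control mice 1 and 2 were chosen after seeing the data. The cause of the changes below was not tested.

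With library totals the number of the 9 genes called went from 3 to 8 (FPC hepatocyte, advanced against control), 3 to 6 (mild), 4 to 7 and 2 to 8 (FPC whole liver, advanced and mild), and, for hepatocyte against whole liver in CDAHFD control, mild and advanced mice, from 2 to 0, 3 to 0 and 2 to 1. Of all genes, 52.7%, 36.3%, 62.3% and 47.2% were called under that scaling in these FPC comparisons. Between the CDAHFD fractions 18.6%, 48.8% and 41.6% were. Shares of all genes are given here for library totals and RLE only, so the counts below with DESeq2, no filter or 2 groups cannot be read against them. RLE scaling gave 0 and 1 in those CDAHFD controls and mild mice, where it called 19.4% and 49.7% of all genes. DESeq2 gave 1 in each of these 2 groups, 4 for mild FPC whole liver (2 in the main test) and 2 for advanced against mild there (1), where no filter and fitting only 2 groups gave 0. Without CDAHFD control mice 1 and 2 the 2 calls of CDAHFD controls fell to 0. With the mouse as a replicate block, calls between fractions went from 0 to 1, 1 to 3 and 0 to 3 in FPC control, mild and advanced mice and from 3 to 5 in CDAHFD mild mice, and no other call count moved by over 1.5 times. Between FPC fractions the block also raised the calls over all genes, as given below, so these gains are not particular to the 9 genes.

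Leaving out single mice gave 3 to 5 calls for FPC hepatocyte advanced against control, 0 to 1 for advanced against mild, 2 to 4 and 0 to 1 for FPC whole liver mild against control and advanced against mild, 1 to 3 for the diet difference in mild mice, and between fractions 0 to 1 in FPC mild and advanced mice, 1 to 3, 0 to 4 and 1 to 2 in CDAHFD control, mild and advanced mice. Calls over all genes in these refits are not given here. The counts therefore do not show whether the 9 genes moved apart from other genes. Over all genes, calls in CDAHFD advanced against mild hepatocyte nuclei were 375, or 634 with library totals, 1119 with DESeq2 and 745 with 2 groups. In whole liver they were 265, or 707 and 483 with the latter 2. Of 14333 genes tested between FPC fractions, the block moved calls from 2512, 3759 and 3226 to 5767, 7223 and 6421 in control, mild and advanced mice. It moved interactions from 547 to 1355 and 1466 to 2572 (761 without control mice 1 and 2, 2860 with both). The 4444 calls of CDAHFD controls became 2772 with RLE, 2656 with library totals and 2075 without those mice. Library totals also moved the regulator list from 2 to 9 and 6 to 12 rises (FPC and CDAHFD hepatocyte nuclei), and the falls of further p53 targets from 2 to 0 and 4 to 1.

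Cdkn2b and Cdkn2a had too few counts for a test, and the 3 advanced mice per diet limit precision.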
